A study of Rattus norvegicus with 4 samples.

Results

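Cytochrome P450 enzymes and the receptors that switch them on were read in NR8383 cells, a rat alveolar macrophage line established by lung lavage. The set was chosen by name. It holds every rat gene whose symbol is Cyp followed by a digit, with Cyp51 left out, together with Ahr, Arnt, Ahrr, Nr1i2, Nr1i3 and Por. On these arrays 74 such genes had a measured probe, 68 P450 genes and 6 receptors or partners, of 16500 named genes in all. They were read by 95 of the 45280 measured probes. Cyp2a3, the only other gene that the rule found with a named probe, was left out because its single spot was marked as an outlier on replicate 4, where its processed signal was 128 against 3.22, 3.85 and 7.67 on the other arrays.

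The study measured total RNA of 1 group, the FBS control, in 4 biological replicates with 1 single-colour Agilent array each. The labels give an incubation of 4 h in DMEM medium with 10% fetal bovine serum, for cells that had passed 20 passages, had been grown in 15% serum and had been seeded for 48 h. They add the letters ALI without spelling them out. NR8383 is a single line, and all 4 arrays carry the same treatment, so there is no comparison between conditions and no p-value. The text describes levels and the spread between the 4 replicates.

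P450 enzymes are haem proteins that insert an oxygen atom into a substrate. Those of families 1 to 3 mostly clear drugs, smoke constituents and other foreign chemicals, while most others act on fatty acids, sterols, steroid hormones, vitamin D or retinoic acid. Microsomal P450s take their electrons from the reductase encoded by Por. The aryl hydrocarbon receptor, encoded by Ahr, waits in the cytosol with Hsp90, enters the nucleus when it binds a ligand, and pairs with ARNT to drive Cyp1a1, Cyp1a2, Cyp1b1 and its own repressor Ahrr. The nuclear receptors PXR (Nr1i2) and CAR (Nr1i3) bind DNA with retinoid X receptors and drive Cyp3a and Cyp2b genes, above all in liver. Alveolar macrophages meet inhaled particles and the chemicals they carry.

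The promoters of Cyp1b1 and Ahrr are shown because the AHR drives both genes, and neither was detected on all 4 arrays. Each sequence is the 250 bases before the annotated start of the gene, from RefSeq on the GRCr8 assembly, written 5′ to 3′ on the gene's strand. Capitals mark the letters GCGTG, the core of the site bound by the AHR with ARNT, or CACGC, the same core on the other strand. The Cyp1b1 sequence lies at chr6:21094315-21094564 on the plus strand and holds 2 matches, and that of Ahrr lies at chr1:30821969-30822218 on the plus strand and holds 3.
Cyp1b1: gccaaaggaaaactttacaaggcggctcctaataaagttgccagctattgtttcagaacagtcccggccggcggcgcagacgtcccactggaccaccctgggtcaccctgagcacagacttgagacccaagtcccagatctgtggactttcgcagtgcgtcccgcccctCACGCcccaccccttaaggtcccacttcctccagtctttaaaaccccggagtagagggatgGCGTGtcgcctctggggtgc
Ahrr: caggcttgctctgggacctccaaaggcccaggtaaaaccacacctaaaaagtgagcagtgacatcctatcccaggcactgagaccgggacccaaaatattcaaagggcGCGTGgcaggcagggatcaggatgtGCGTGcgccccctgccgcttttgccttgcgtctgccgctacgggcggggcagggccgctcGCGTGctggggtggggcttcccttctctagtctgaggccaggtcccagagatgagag

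Por, which had the smallest spread of the detected genes of the set, and 3 neighbouring Cyp2d genes that differed in detection give the other sequences. In Por, at chr12:26635810-26636059 on the minus strand, capitals mark the only match to AGGTCA, the hexamer bound by many nuclear receptors, or to TGACCT, its other strand. In the Cyp2d promoters, capitals mark the only match to TATAAA, the TATA box, or to TTTATA, its other strand. Cyp2d5 lies at chr7:115784488-115784737, Cyp2d1 at chr7:115793431-115793680 and Cyp2d3 at chr7:115802143-115802392, all on the minus strand.
Por: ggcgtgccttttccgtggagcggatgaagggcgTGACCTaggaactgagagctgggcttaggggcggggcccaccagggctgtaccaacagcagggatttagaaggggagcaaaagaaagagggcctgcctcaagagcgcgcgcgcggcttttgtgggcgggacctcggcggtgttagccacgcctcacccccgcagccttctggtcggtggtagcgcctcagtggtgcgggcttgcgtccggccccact
Cyp2d5: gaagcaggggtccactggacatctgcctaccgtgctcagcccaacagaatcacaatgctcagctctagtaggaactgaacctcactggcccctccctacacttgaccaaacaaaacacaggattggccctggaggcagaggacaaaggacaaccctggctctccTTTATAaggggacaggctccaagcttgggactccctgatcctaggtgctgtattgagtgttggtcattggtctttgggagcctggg
Cyp2d1: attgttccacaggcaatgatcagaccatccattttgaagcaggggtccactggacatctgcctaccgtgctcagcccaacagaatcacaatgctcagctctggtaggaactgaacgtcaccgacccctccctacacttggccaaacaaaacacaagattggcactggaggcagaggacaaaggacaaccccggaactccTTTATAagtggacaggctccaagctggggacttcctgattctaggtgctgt
Cyp2d3: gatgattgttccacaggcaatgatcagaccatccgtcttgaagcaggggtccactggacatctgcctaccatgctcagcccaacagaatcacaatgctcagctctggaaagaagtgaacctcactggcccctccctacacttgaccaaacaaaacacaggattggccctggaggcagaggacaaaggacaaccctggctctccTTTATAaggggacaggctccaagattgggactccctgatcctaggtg

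A probe was counted as detected where the scanner software marked it well above background on all 4 arrays, and a gene where any of its probes was. Levels are the log2 processed signal minus the 75th percentile of each array, so 0 is the signal that 75% of probes stay under. That percentile was a processed signal of 83.4, 112, 126 and 167 for replicates 1 to 4 in turn. The share of spots well above background followed the same order, from 50.9% to 58.9%. No spot was saturated. The lowest signal among spots marked well above background was between 9.17 and 13.2, and the 95th percentile of the 308 negative control spots was between 3.20 and 3.68. The 10 macrophage markers looked for, Cd68, Ptprc and Spi1 among them, were all detected, with a summed signal between 92614 and 144363. Of 8 hepatocyte markers only Hnf4a was detected, by 1 of its 3 probes, and the summed signal was between 49.5 and 94.6. Serpina1 was well above background on 1 array, and Alb, Apoa1 and Ttr were on none. Of 4 club cell markers only Scgb3a1 was detected, with a summed signal between 34.6 and 75. Cldn10 was well above background on 3 arrays, Bpifa1 on 2 and Scgb1a1 on none. None of 5 alveolar type 2 markers (summed signal 22.2 to 37.3) and none of 4 steroid-making cell markers (17.0 to 31.3) was detected on all 4 arrays. Of these, Sftpc was well above background on 2 arrays and Star on 1. The part of other cell types in the P450 signals was not tested.

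Most P450 genes were not detected in these cells. On all 4 arrays 14 of 68 P450 genes (20.6%) were well above background, against 53.1% of all named genes. A further 41 of the 68 (60.3%) were well above background on no array, against 34.4% of all named genes, and 13 were so on 1 to 3 arrays. Of these 13, 6 were so on 1 array (8.82% of P450 genes, against 5.2% of all named genes). On 2 arrays there were 2 (2.94%, against 3.06%) and on 3 arrays 5 (7.35%, against 4.16%). In bulk RNA, few cells with a transcript and little of it in each cell cannot be told apart. Of the 6 receptors and partners, Arnt and Por were detected. With them, 16 of the 74 genes (21.6%) were detected. Under the software's less strict mark, positive and significant against the local background, 28 of 68 P450 genes (41.2%) and 4 of 6 receptors and partners passed on all 4 arrays, against 66.9% of all named genes. By that mark 8 of the 68 P450 genes were on no array, against 9.53% of all named genes, so these shares lay closer together. The P450 share well above background was under that of all genes on each array taken alone, with 25.3% of 87 P450 probes on replicates 1 and 2, 33.3% on replicate 3 and 32.2% on replicate 4, against 53.7% to 61.4% of named probes. It was also lower among genes of the same number of probes, with 9 of 54 genes with 1 probe (16.7%, against 49.1% of all) and 5 of 14 genes with 2 or more (35.7%, against 67.5%).

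**Figure D1:**
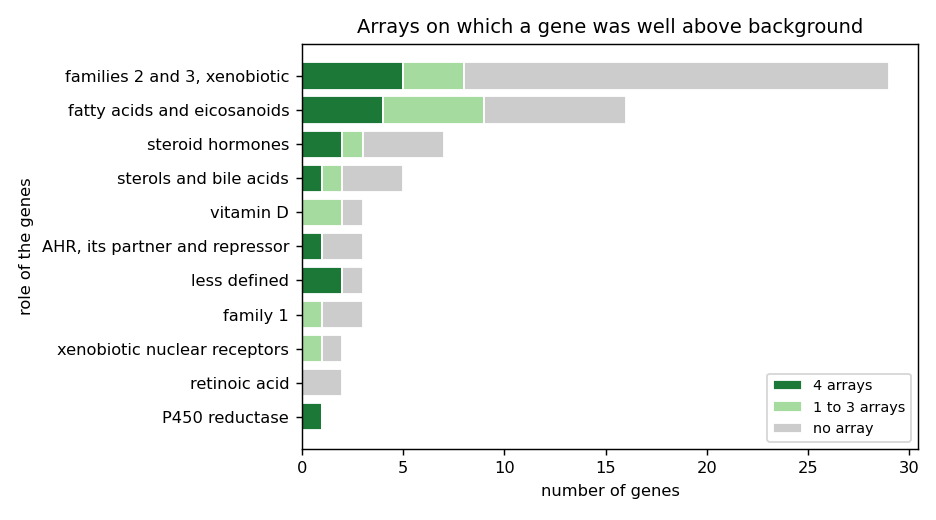
Number of genes by role (bars, x axis) that were well above background on all 4 arrays, on 1 to 3 arrays or on none. In the largest group, the xenobiotic enzymes of families 2 and 3, 5 of 29 genes were on all 4 arrays and 21 on none, while the fatty acid and eicosanoid enzymes had 4 of 16 on all 4 arrays and 7 on none.

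Of the AHR genes, the receptor itself was not well above background on any array. Its probe had processed signals of 2.14, 9.66, 5.69 and 2.87 on replicates 1 to 4. The signal exceeded the 95th percentile of the negative controls on replicates 2 and 3 and stayed under it on the other arrays. Ahrr, the repressor that competes with the receptor for ARNT, had signals of 3.20, 6.87, 2.93 and 2.70 and was likewise on no array. Arnt, the shared partner that also serves the hypoxia factor Hif1a, was detected by 1 of its 2 probes, with levels of 0.04, 0.21, 0.02 and -0.14 (0.03 ± 0.14, SD, n = 4). These values lay close together, with replicate 2 the highest. The second Arnt probe was well above background on replicates 2, 3 and 4, with signals of 13.3, 15.7, 26 and 19.0.

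Of the AHR complex and its partners, 11 of 12 measured genes were detected (91.7%, against 53.1% of all genes). Among them were the chaperone genes Hsp90aa1 (6.75 ± 0.45) and Hsp90ab1 (7.76 ± 0.13), given as mean level ± SD over 4 arrays. Src was on no array. Of known AHR targets outside the P450 family, 6 of 11 were detected (54.5%, against 53.1% of all genes). Among these, the quinone reductase Nqo1 had a level of 0.16 ± 0.06, the aldehyde dehydrogenase Aldh3a1 -2.57 ± 0.47 and the glucuronosyltransferase Ugt1a6 0.98 ± 0.27 (SD, n = 4). Serpinb2 and Ido1 were on no array.

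None of the 3 family 1 enzymes, the classic AHR targets, was detected on all 4 arrays. Cyp1a1, which oxidises polycyclic hydrocarbons, had signals of 2.72, 2.44, 2.79 and 6.18. Only its replicate 4 value exceeded the 95th percentile of that array's negative controls. The 2 probes of Cyp1a2, its liver counterpart, had 1.82, 3.28, 2.90 and 2.63, and 4.55, 7.02, 9.96 and 2.89, and neither was well above background on any array. Cyp1b1, the family member known for expression outside the liver, was read by 3 probes. In replicates 1 to 3 its brightest probe had signals of 10.9, 11.9 and 11.4, and in replicate 4 the signal was 45.0, the only array on which it was well above background. The other 2 Cyp1b1 probes had signals between 2.22 and 3.14 on all 4 arrays, so the higher value on replicate 4 was seen by a single probe with 1 spot.

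Both nuclear receptors for foreign chemicals were at or under the detection limit. Nr1i2, which encodes PXR, had signals of 11.1, 11.6, 14.8 and 18.9 and was well above background on replicates 1, 3 and 4. After scaling, its 4 levels lay within a narrow range (-3.10 ± 0.15, SD, n = 4). Nr1i3, which encodes CAR, was on no array with either probe, with signals of 3.29, 7.0, 5.01 and 10.4 for 1 probe and 4.30, 2.56, 2.96 and 5.37 for the other. By the less strict mark, positive and significant, both receptors passed on all 4 arrays, Nr1i3 by the first of these probes. Their partners and relatives were detected more fully. Of 18 nuclear receptors and corepressors, 13 were detected (72.2%, against 53.1% of all genes), with Rxra at -1.26 ± 0.16, Rxrb at 1.27 ± 0.24 and the retinoic acid receptor Rara at 3.81 ± 0.54. Rxrg and Rarb were on no array.

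Por, the reductase, had the smallest spread of the 16 detected genes of the set. Its levels were 3.32, 3.38, 3.47 and 3.29 (3.37 ± 0.08, SD, n = 4), and no replicate stood apart. Beside it, all 10 genes of the electron supply and membrane partner list were detected. They included cytochrome b5, encoded by Cyb5a (4.95 ± 0.18), its outer mitochondrial form Cyb5b (-1.44 ± 0.16) and the reductase Cyb5r3 (3.04 ± 0.30). Haem synthesis, which supplies the cofactor, had 8 of 9 genes detected, with Alas1, the first enzyme of the route, at 7.16 ± 0.24 and Alad, the second, at 2.09 ± 0.26. The erythroid form Alas2 was on no array. The share detected in these lists, 100% and 88.9%, compares with 53.1% of all genes and with 20.6% of the P450 genes themselves.

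**Figure D2:**
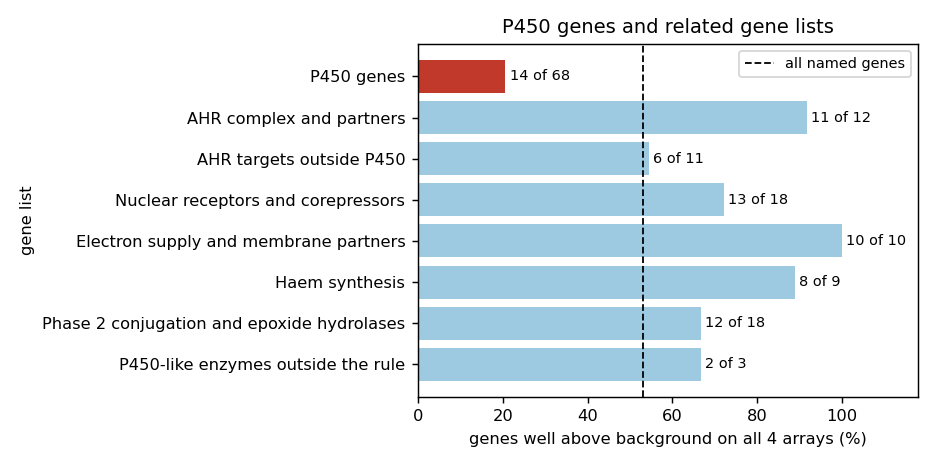
Share of genes well above background on all 4 arrays (x axis, %) among the P450 genes (red) and 7 related gene lists (blue), with counts beside the bars and the share of all named genes, 53.1%, as a dashed line. The P450 genes (14 of 68) lie under the line. The 7 lists lie above it, but the AHR targets outside P450 (6 of 11, 54.5%) lie close to it, and the P450-like enzymes are 3 genes.

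Among the 29 enzymes of families 2 and 3 that mainly handle foreign chemicals, 5 were detected: Cyp2d1, Cyp2d5, Cyp2d4, Cyp2c7 and Cyp2b15. The Cyp2d subfamily, which oxidises many amine drugs, held 3 of them. Cyp2d1 had levels of 3.68, 2.58, 2.79 and 2.65 (2.92 ± 0.51, SD, n = 4). For Cyp2d5 the levels were 3.61, 2.75, 2.87 and 2.65 (2.97 ± 0.44). In both genes the level on replicate 1 lay above the other arrays, which differed little among themselves. Before scaling, the signals were 1066, 668, 876 and 1047 for Cyp2d1 and 1020, 754, 927 and 1050 for Cyp2d5. On that scale replicate 4 came close to replicate 1 or exceeded it. Cyp2d4 had levels of -1.14, -2.29, -1.45 and -1.56 (-1.61 ± 0.49), again with replicate 1 the highest, and replicate 2 the lowest. Its signals before scaling were 37.9, 22.9, 46.2 and 56.8, with replicate 4 the highest. Cyp2d3 (signals of 2.72, 3.53, 6.88 and 4.00) and Cyp2d2 (2.00, 3.07, 2.64 and 2.67) were on no array.

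These genes form a row on chromosome 7, in the order Cyp2d4, Cyp2d5, Cyp2d1, Cyp2d3 and Cyp2d2 of the RefSeq annotation, so the 3 detected genes are neighbours and so are the 2 on no array. Among the 3 printed promoters, that of Cyp2d3, on no array, was closest to that of the detected Cyp2d5. In the stretch that both of the printed windows cover, Cyp2d3 and Cyp2d5 were identical in 205 of 211 aligned columns (97.2%), Cyp2d1 and Cyp2d5 in 201 of 215 (93.5%) and Cyp2d1 and Cyp2d3 in 226 of 246 (91.9%). The promoter of Cyp2d4 aligned with the others over 4 to 20 columns only, too few to compare. That of Cyp2d2 was identical to Cyp2d1 in 115 of 227 columns (50.7%) and aligned with the rest over 3 to 20. The part of the promoters in detection was not tested. Counted from the gene's start, the TATAAA match began at position -51 in Cyp2d1, -47 in Cyp2d3 and -86 in Cyp2d5. Cyp2d1 and Cyp2d5 are known as close copies of each other, each read by 1 probe, and whether each probe reads only its own gene was not tested.

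Cyp2c7, a Cyp2c enzyme of rat liver, was detected by 4 of its 5 probes, with gene levels of -1.19, -1.91, -1.83 and -1.32 (-1.56 ± 0.36, SD, n = 4). Its probes did not move together. One had levels of 2.10, -0.70, -0.70 and -0.07, so that replicate 1 lay 2.59 log2 units above the mean of the others. In the other 3 detected probes that difference was -0.38, -0.32 and 0.12. Cyp2b15, of the subfamily that CAR drives in liver, had levels of -1.88, -2.11, -2.36 and -2.83 (-2.30 ± 0.41), with replicate 4 the lowest.

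The remaining enzymes of this group were dim. Cyp2c11 and Cyp3a23-3a1 were well above background on replicate 3 only, and Cyp2f4, known from club cells of the lung, on replicate 4 only. None of the 5 Cyp3a genes, the main PXR targets, was detected on all 4 arrays, and 1 of 8 Cyp2c genes and 1 of 5 Cyp2b genes was. The 21 genes on no array were Cyp2a1, Cyp2a2, Cyp2b2, Cyp2b3, Cyp2b12, Cyp2b21, Cyp2c6v1, Cyp2c12, Cyp2c13, Cyp2c22, Cyp2c23, Cyp2c24, Cyp2d2, Cyp2d3, Cyp2e1, Cyp2g1, Cyp2t1, Cyp3a2, Cyp3a9, Cyp3a18 and Cyp3a62. Their signals differed in how close they came to the limit. Cyp2a1 had 2.93, 3.21, 2.96 and 3.73, close to the 95th percentile of the negative controls or under it. Cyp3a18 had 5.50, 2.42, 2.92 and 4.75, above that percentile on replicates 1 and 4. Cyp2c22, chosen after its values were seen, had 6.82, 5.56, 10.4 and 10.0 and was positive and significant on all 4 arrays without being well above background on any. In contrast to these oxidation enzymes, 12 of 18 genes of conjugation and epoxide hydrolysis were detected (66.7%, against 53.1% of all genes). Among them the microsomal epoxide hydrolase Ephx1 stood at 0.16 ± 0.14, the soluble form Ephx2 at -1.09 ± 0.24 and the glutathione transferase Gstp1 at 3.23 ± 0.44 (SD, n = 4), while Gstt1 and Ugt2b1 were on no array.

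The 16 enzymes of fatty acids and eicosanoids had 4 detected genes, Cyp4a8, Cyp4b1, Cyp4f6 and Cyp2j3. Cyp4a8, a fatty acid hydroxylase of the subfamily that PPAR alpha drives, had signals of 9092, 2688, 3617 and 4164, or levels of 6.77, 4.59, 4.84 and 4.64 (5.21 ± 1.05, SD, n = 4). Replicate 1 was 2.08 log2 units (4.23-fold) above the mean of the other 3, which lay between 4.59 and 4.84. This was the widest spread of the 16 detected genes. The gene's other 2 probes were on no array, with signals of 2.6, 3.50, 3.86 and 13.4, and of 2.98, 4.05, 4.39 and 9.08, so the level of Cyp4a8 rests on a single probe with 1 spot per array. The deviation on replicate 1 was 0.48 when all 3 probes were averaged.

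Cyp4b1, a lung monooxygenase, was detected by both probes, with gene levels of 0.58, -0.16, -0.29 and -0.20 (-0.02 ± 0.40, SD, n = 4). The level on replicate 1 was the highest for each probe, by 1.03 and 0.56 log2 units over the mean of the others. Before scaling, the signals were 427, 284, 318 and 417 for the first probe and 36.1, 35.6, 33.6 and 50.7 for the second. Cyp4f6, of the subfamily that hydroxylates leukotrienes and arachidonic acid, had levels of 1.81, 1.65, 1.89 and 2.08 (1.86 ± 0.18). Its 2 probes, both detected, went opposite ways on replicate 1, by -0.52 and 0.39. Cyp2j3, an arachidonic acid epoxygenase, had -1.11, -1.35, -1.24 and -1.31 (-1.25 ± 0.10), a narrow range.

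Cyp4a1, another fatty acid hydroxylase, was detected on some arrays. Its signals were 2.85 on replicate 1 and 22.4, 24.6 and 29.7 on replicates 2 to 4, where it was well above background. So replicate 1 was the lowest array for Cyp4a1 and the highest for Cyp4a8, which lies in the same gene cluster on chromosome 5. Cyp4a2, another gene of that cluster, was well above background on replicates 1, 3 and 4, with signals of 15.6, 11.1, 27.2 and 20.8. Cyp2j4 was so on replicates 3 and 4, Cyp4f17 on replicates 1 and 3, and Cyp4v3 on replicate 3 alone. The 7 on no array were Cyp4a3, Cyp2j10, Cyp4f1, Cyp4f4, Cyp4f5, Cyp4f18 and Cyp4f40.

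**Figure D3:**
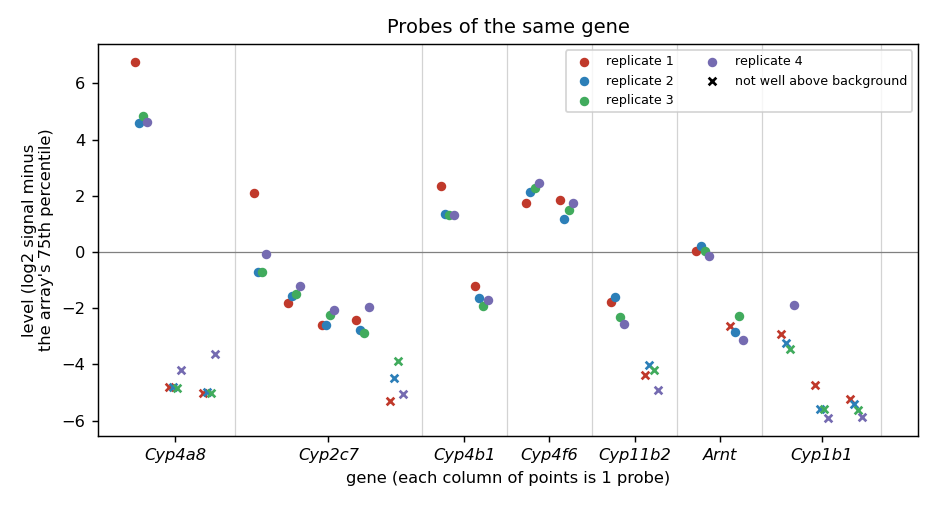
Level of each probe (y axis, log2 signal minus the array's 75th percentile) of the detected genes with several probes and of Cyp1b1, with 1 column of points per probe, colours for the 4 replicates and crosses where a probe was not well above background on that array. In Cyp4a8 and Cyp2c7 a single probe carries a high replicate 1 value (6.77 and 2.10), and in Cyp1b1 a single probe is raised on replicate 4.

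Probes of the same gene often differed in this set. Of the 6 detected genes with several probes, 4 (Arnt, Cyp11b2, Cyp2c7 and Cyp4a8) had at least 1 probe that was not detected, against 37.7% of all detected genes with several probes. In Cyp4b1 and Cyp4f6 every probe was detected. For 94 of the 95 probes there was 1 spot per array, so no value within an array gives an error of its own.

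Of 5 enzymes of sterol and bile acid metabolism, Cyp27a1 was detected. It encodes the mitochondrial sterol hydroxylase by which macrophages turn cholesterol into a more soluble product. Levels were 2.47, 1.88, 1.88 and 1.42 (1.91 ± 0.43, SD, n = 4), with replicate 1 the highest and replicate 4 the lowest. Before scaling its processed signals were 461, 413, 466 and 447, nearly the same on every array, so its spread follows the 75th percentile of each array. Cyp39a1, an oxysterol hydroxylase, was well above background on replicates 2, 3 and 4 by 1 of its 2 probes. The bile acid enzymes of liver were on no array, with signals of 3.04, 2.28, 4.74 and 2.93 for Cyp7a1, the rate-limiting enzyme, and 3.24, 4.87, 2.83 and 13.2 for Cyp8b1. Cyp7b1 was also on none. Of 3 P450-like enzymes outside the naming rule, Ch25h, another cholesterol hydroxylase (4.12 ± 0.71), and the thromboxane synthase Tbxas1 (3.86 ± 0.24) were detected, and the prostacyclin synthase Ptgis was on no array.

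Vitamin D enzymes were near the limit. Cyp27b1, which makes the active hormone and is known in activated macrophages, was well above background on replicates 1, 3 and 4 by 1 of its 2 probes, with signals of 16.6, 10.7, 25.6 and 35.9. Cyp2r1, a vitamin D hydroxylase of the preceding step, was so on replicates 2, 3 and 4, with signals of 8.84, 14.8, 18.1 and 19.7. Cyp24a1, which inactivates the hormone and is a target of its receptor, was on no array, with 2.32, 2.69, 5.75 and 3.21. Cyp26a1 and Cyp26b1, which clear retinoic acid, were on no array either, with signals of 5.78, 2.15, 5.77 and 6.97 for Cyp26a1.

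Of 7 steroid hormone enzymes, 2 that are known from the adrenal cortex were detected. Cyp21a1, the steroid hydroxylase needed for cortisol-type and aldosterone-type hormones, had levels of -1.63, -0.72, -0.93 and -1.38 (-1.16 ± 0.41, SD, n = 4). Here replicate 1 was the lowest. Cyp11b2, the aldosterone synthase, had -1.79, -1.59, -2.31 and -2.58 (-2.07 ± 0.46) by 1 of its 2 probes, and the other was on no array. Cyp11b3 was well above background on replicate 4 only. The gateway enzyme Cyp11a1 (signals of 4.02, 2.6, 2.63 and 9.33) was on no array, as were Cyp17a1 (12, 8.32, 13.8 and 7.09), the aromatase Cyp19a1 (3.01, 2.48, 2.76 and 2.80) and Cyp11b1. The 4 markers of steroid-making cells looked for beside them were not detected. Star was well above background on 1 array, and Hsd3b1, Nr5a1 and Lhcgr were on no array.

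Of 3 P450s with a less defined role, Cyp20a1, an orphan enzyme, had levels of 3.25, 3.33, 2.94 and 2.47 (3.00 ± 0.39, SD, n = 4), with replicate 4 the lowest. Before scaling, its signals were 793, 1122, 970 and 925, with replicate 1 the lowest. Cyp2s1, an enzyme of epithelia outside the liver and a known AHR target, had signals of 15.0, 41.3, 53.3 and 101, or levels of -2.48, -1.44, -1.25 and -0.72 (-1.47 ± 0.74). Replicate 1 was the lowest, at -1.34 log2 units from the mean of the others. That difference was -0.09 when the background was corrected by normexp with an offset of 50, which compresses dim signals. Cyp4x1 was on no array.

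**Figure D4:**
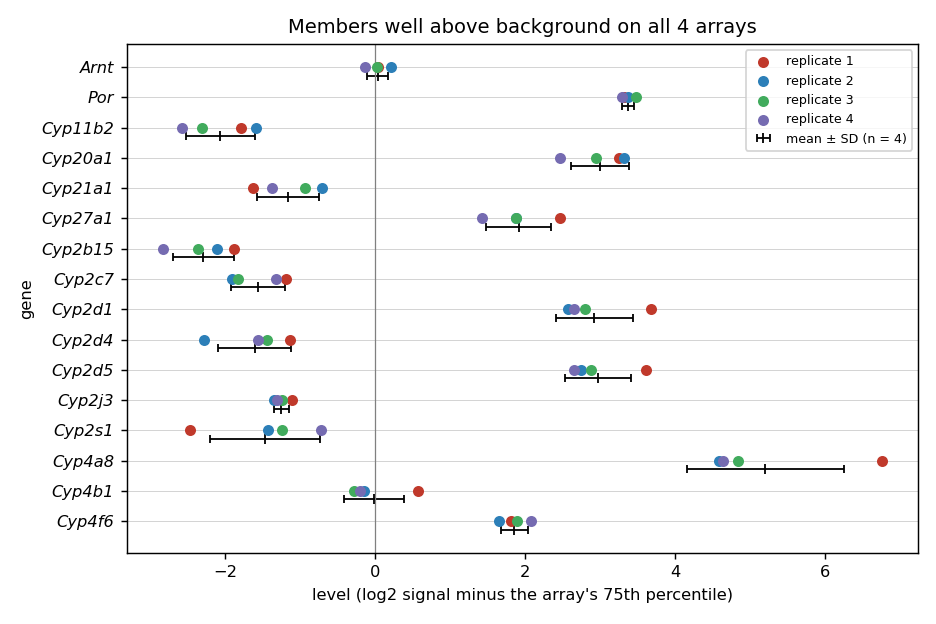
Level (x axis, log2 signal minus the array's 75th percentile) of the 16 detected genes on each of the 4 arrays (points), with the mean ± SD (n = 4) as a bar under each row. Por has the narrowest spread (SD 0.08) and Cyp4a8 the widest (SD 1.05), with replicate 1 of Cyp4a8 at 6.77.

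The detected genes of the set had a higher median SD between arrays than detected genes at large. Their median SD was 0.411 log2 units, with a range from 0.079 to 1.05, against 0.237 over all detected genes. With background correction by normexp these medians were 0.261 and 0.196, so the difference was smaller. Replicate 1 was the array farthest from the others for 9 of the 16 genes, as it was for 54.6% of all detected genes, followed by replicate 4 for 4, replicate 2 for 2 and replicate 3 for 1. With replicate 1 left out, the median SD of the same 16 genes was 0.243, against 0.146 over all detected genes. When genes were chosen anew on replicates 2 to 4, it was 0.218.

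On replicate 1 the 16 genes had a median deviation of 0.436 log2 units from the mean of the other arrays, against 0.0715 over all detected genes. Without the filter on dim probes the medians were 0.272 over all 74 genes and 0.166 over all named genes. For replicates 2, 3 and 4 in turn, the medians of the 16 detected genes were -0.084, -0.057 and -0.265, against -0.002, 0.030 and -0.069 over all detected genes. Replicate 1 was above all other arrays in 9 of the 16 genes (56.2%, against 42.4% of all detected genes), below them in Cyp21a1 and Cyp2s1, and between them in 5. It lay more than 1 log2 unit from the mean of the others in 3 of the 16, Cyp4a8, Cyp2d1 and Cyp2s1, against 6.69% of all detected genes. Cyp2d1 passed that distance narrowly. It fell short of it, leaving 2 genes, with quantile normalization (6.47% of all detected genes), with the 75th percentile over detected probes (6.53%) and without replicate 2 or 4 (7.4% and 6.32%). With normexp only Cyp4a8 was that far (2.96%), and without the filter on dim probes 10 of the 74 genes were (10.6% of all named genes). Replicate 1 is also the array with the lowest 75th percentile and the fewest spots above background, and the part of this in the deviations was not tested. All 4 arrays were on 1 slide, so array position and replicate cannot be told apart.

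**Figure D5:**
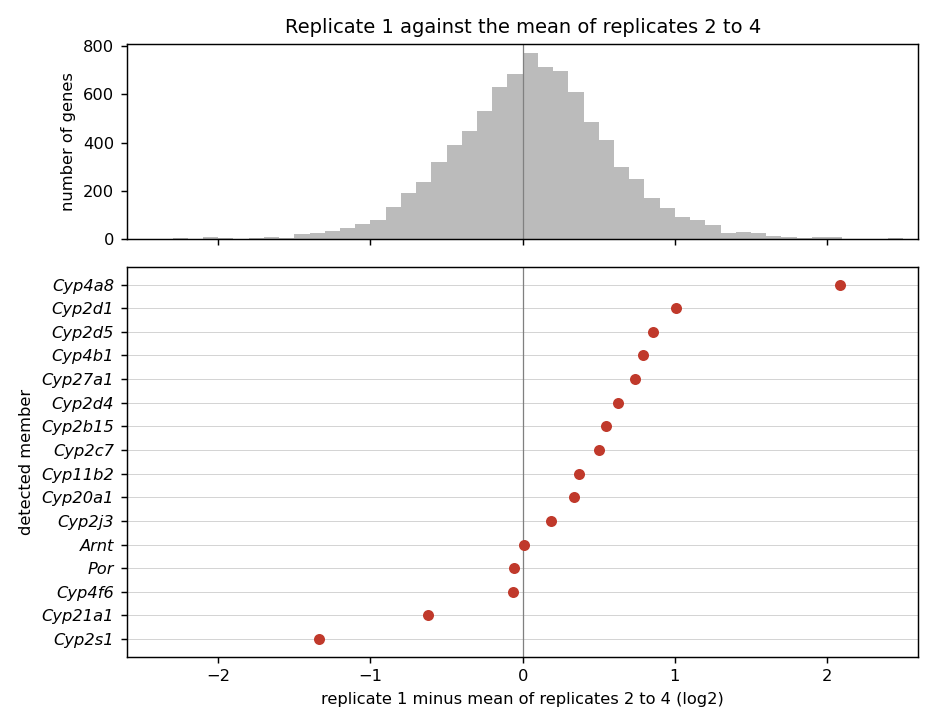
Difference between replicate 1 and the mean of replicates 2 to 4 (x axis, log2), as a histogram over all 8769 detected genes (upper panel, y axis number of genes, differences beyond the axis not drawn) and as points for the 16 detected genes of the set (lower panel). The points run from -1.34 in Cyp2s1 to 2.08 in Cyp4a8, and replicate 1 exceeded every other array in 9 of the 16 genes.

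Promoter letters were set beside detection as a description. An entry of 250 bases was found for 59 of the 74 genes, 15 of them detected. GCGTG, on either strand, was in 15 of the 59 (25.4%), against 25.9% of all 33469 promoters of the table, and in 4 of the 15 detected genes, Arnt, Cyp20a1, Cyp4f6 and Por. AGGTCA was in 20 (33.9%, against 14.1%), 6 of them detected genes, and TATAAA in 17 (28.8%, against 12.9%), 4 of them detected genes. The GC box GGGCGG was in 16 (27.1%, against 30.5%), 5 of them detected genes. Each motif was counted on its own and on both strands, and matches of different motifs may share bases. Near copies, such as the TATAAA promoters of Cyp2d1, Cyp2d3 and Cyp2d5, were counted as separate genes, so the matches are not independent. The median GC content was 56.8% in the 15 detected genes and 46.4% in the 34 genes on no array, against 51.2% in all promoters. It was not computed for detected and undetected genes at large, so whether this difference is particular to the set was not tested. A match shows the letters only.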

How the data were processed

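Each array gave 62976 spots. The files hold linear intensity values per spot, per the file headers. These are a processed signal, made by the background handling of Agilent Feature Extraction 11.0.1.1 (version per the submitters' processing notes), and median foreground and background signals, not scaled between arrays. Labelling with Cy3 started from 100 ng of RNA, and integrity numbers exceeded 7.5, per the labels' protocols.

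Control spots (4259 per array) and outlier spots (440 to 1206) were left out, spots of 1 probe were averaged, and a probe with no usable spot on some array was dropped, which removed 318 probes. The level is the log2 of that processed signal less the 75th percentile of the same array over probes. A gene's level is the mean of its detected probes. Names come from RefSeq symbols of GRCr8, through accessions stripped of their version, and GRCr8 was used for names, gene order and promoters. This named 20983 probes, and 24297 unnamed ones were not analysed here. RefSeq holds 103 P450 symbols by the rule, of which 34 had no named probe and were not analysed here. The array's own annotation is on another build.

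There is 1 group, so no test between groups was run, and levels were searched for outlying replicates with Dixon's criterion. All receptors, partners and detected P450 genes were named with every value, P450 genes on 1 to 3 arrays by name, those on none by family, and, of each related list, the first 3 detected and the first 2 on no array, except that some genes of these lists are not reported here. The genes and lists were chosen with earlier results of these data known. Calculations used Python 3.11.15 with numpy 2.4.6, pandas 2.3.3 and Biopython 1.88 (promoter alignment), and R 4.3.3 with limma 3.58.1 for normexp, and were tested on simulated data. Alternatives changed the detection mark, probe rule, scaling, background correction and replicates. The 4 arrays limit the precision.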

Additional observations from a re-analysis of the deposited data

Results flagged for a closer look

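Levels of 41 detected genes, the 16 of the set and the first 3 detected of each related or marker list, were searched for a replicate far from the other 3, and 5 were found. For a single gene chance alone gives about 1 in 20, but the 41 genes share the same 4 arrays and are not independent. All 5 were high on replicate 1, the array farthest from the others for 54.6% of all detected genes. The share of all detected genes that the same criterion marks was not counted, so the 5 cannot be set against genes at large. Among the P450 genes these were Cyp4a8, with a level of 6.77 on replicate 1 against 4.59 to 4.84 elsewhere, and Cyp4b1, with 0.58 against -0.29 to -0.16. In the related lists they were Cyb5b (-1.19 against -1.54 to -1.49), Rara (4.61 against 3.43 to 3.61) and Tbxas1 (4.22 against 3.72 to 3.76).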

How the results depend on the processing

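Counting genes by the positive-and-significant mark gave 28 of 68 P450 genes and 4 of 6 receptors or partners on all 4 arrays, against 66.9% of all named genes. On none were 8 of the 68 P450 genes, against 9.53% of all named genes. Counting signals above the 95th percentile of the negative controls gave 26 and 4 on all 4 arrays, against 66.0% of all named genes. It left 12 P450 genes on none, against 9.93%. Asking for every probe of a gene left 11 of the 68 P450 genes and 1 of the receptors and partners on all 4 arrays, against 47.5% of all named genes. Using the first probe of each gene gave 13 and 1, against 50.5%. With normexp on the median signals the median SD was 0.261 (0.196 over all detected genes), and without a filter on dim probes the median deviation on replicate 1 was 0.272 (0.166 over all named genes). Leaving out 1 replicate at a time gave 14 to 17 P450 genes on all arrays, against 53.3% to 56.2% of all named genes. It gave 41 to 44 on none, against 34.8% to 37.3%. It also gave 2 to 3 receptors or partners, a median SD from 0.218 (without replicate 1) to 0.486 and a median deviation from 0.267 to 0.391. In 33 of the 45 recomputed counts and medians the value moved by no more than 1.5 times, and no sign turned in any of the 45. Among single genes, the deviation on replicate 1 was 0.635 for Cyp2d1 under normexp, and for Cyp2c7 it was 0.237 without the filter and 0.116 with its first detected probe. The causes were not tested. Naming by a gene name column could not be run, since the files used here hold none, and naming by accession alone is the same as the setting used. Normexp used median signals in place of mean signals. A dim patch on replicate 4 held none of the 95 probes, and 3 lay within 10 rows or columns of it. No paired analysis was possible because there is 1 group.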
